A study of Homo sapiens with 16 samples.

Results

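The sites described here are single adenosines that the authors listed as reproducible m6A sites in U87-R cells treated with STM2457 and listed in neither untreated cell state. Of 12791 sites on the list of treated cells, 2450 stood on neither the U87-R list (35207 sites) nor the U87 list (33396 sites) at the same base and strand. Of these, 1297 lay within 50 nt of the 5′ end of the gene span holding them and were left out, which leaves 1153 members among 452349 bases called in any library. The members were chosen by these scores and peaks themselves, so their scores in treated against untreated cells are given below as a description, with no test.

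N6-methyladenosine (m6A) was mapped with m6A-eCLIP, in which polyA RNA is fragmented, bound and UV-linked to an antibody against m6A, and the contact base is read by sequencing. U87-R STM2457 (2 libraries) is U87-R exposed for 96 hours to 50 µM STM2457, an inhibitor of the methyltransferase METTL3. U87-R (3 libraries) is a temozolomide-resistant derivative of U87 and carries a DMSO control label, and all U87-R cells, with or without the inhibitor, grew in medium with 50 µM temozolomide. U87 MG (U87, 3 libraries) is the parental human glioma line, also with a DMSO control label and without temozolomide. RNA abundance was not measured in what follows, because the 8 input libraries were not analysed here, so a score joins how much of an RNA is bound with how much of it there is, and neither can be told apart from fewer or more molecules per cell.

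Most m6A in messenger RNA is written in the nucleus by a complex of METTL3, METTL14 and WTAP, at adenosines followed by C within a consensus called DRACH, and it is concentrated around stop codons and in 3′ untranslated regions. A related mark, m6Am, sits on an adenosine next to the cap, the first transcribed base, and is written by another enzyme, PCIF1. Antibodies raised against m6A also bind m6Am, so an eCLIP signal at a transcript start can come from either mark.

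The bases around 9 members are printed first, because 43.3% of the members that could be placed against an annotated start lay within 50 nt of one. The capital marks the called adenosine, with 12 bases on either side, read 5′ to 3′ on the transcribed strand from the RefSeq start table (GRCh38.p14, the coordinates of hg38). The first 5 are among the members with the highest combined score at or downstream of a start, 1 per gene, and the last 4 are those highest 1 to 50 nt upstream of one.
IL36RN, chr2:113059186-113059210, plus strand: ccttggaggaacAggcagactccac
LARP1, chr5:154755369-154755393, plus strand: ccccgtccgtccAtattgctgcagc
TUBA4A, chr2:219253904-219253928, minus strand: tgcagctagcgcAgttctcactgag
SH2B3, chr12:111405911-111405935, plus strand: cggttcctctttAcataacggcgcg
SERF2, chr15:43792308-43792332, plus strand: ggcgggacctgcAacgtccgacaga
NOP10, chr15:34343146-34343170, minus strand: tatgcaggaaggAaattgacgaaca
CD68, chr17:7579576-7579600, plus strand: agtgagactttcAtttcctcctttc
BANF1, chr11:66002480-66002504, plus strand: aagcggaagtggAagaaagttctag
IFI30, chr19:18173783-18173807, plus strand: ttaaaggcgcttAtttcccaggcag

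In IL36RN, SH2B3 and SERF2 the called adenosine was the first annotated base itself. In TUBA4A it lay 2 nt and in LARP1 4 nt downstream of the start. In the last 4 it lay 22 (NOP10), 50 (CD68), 11 (BANF1) and 18 nt (IFI30) upstream of the start and outside every gene span, where the distance rule could not remove it. All but SH2B3 among the first 5 have a C directly before the capital, and only SH2B3 has a C directly after it.

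The libraries held 105900 and 110875 called bases in U87-R STM2457, 149477 to 192697 in U87-R and 150135 to 182556 in U87. Of 7 marker genes of a mesenchymal glioma line, 6 (VIM, CD44, SPARC, TNC, CHI3L1 and NES) were called in all 8 libraries. Of 13 markers of other cell types, 8 were called in none and CD68 and PECAM1 were called in all. Read numbers behind the scores are unknown, and counting error is therefore not given. Replicates are not described as separate cultures, and p-values thus reflect only the spread among the libraries, possibly technical in origin.

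The members were weak sites in the treated cells and weaker, though mostly present, in the untreated cells. The score is the authors' own, with no stated unit. The median score of the called members was 29.1 and 30.1 in the 2 STM2457 libraries, 18.6, 16.1 and 15.6 in the 3 U87-R libraries, and 12.2, 16.8 and 15.6 in the 3 U87 libraries. The same medians for the 8657 other treated-list sites beyond 50 nt of a gene's 5′ end were 40.9 and 43.1 in U87-R STM2457, 57.7 to 71.5 in U87-R and 54.5 to 59.5 in U87. The members thus stood higher in the treated libraries, while the other sites of the same list stood lower there. Of the 1153 members, 865 to 926 were called in a U87-R library and 719 to 794 in a U87 library. With uncalled members as 0, the medians were 13.3, 8.68 and 9.03 in the U87-R libraries and 4.38, 8.12 and 6.53 in the U87 libraries.

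**Figure D1:**
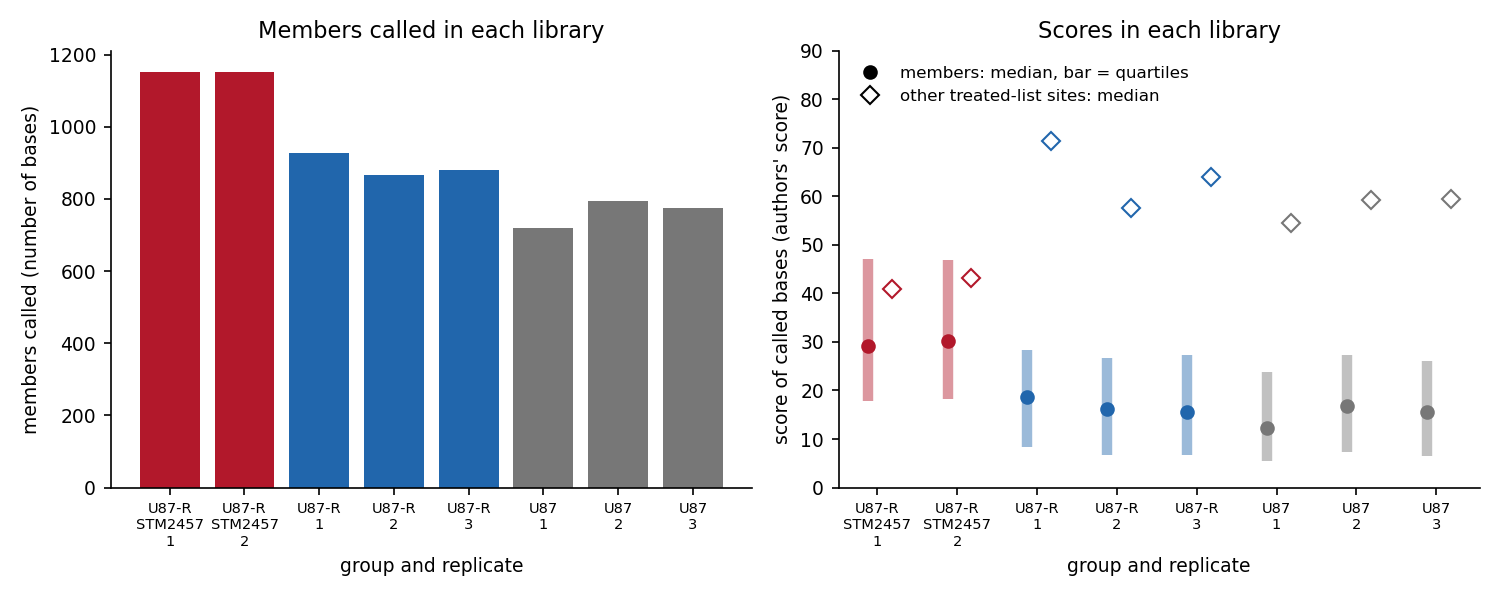
Left, the number of the 1153 members called in each library (bars); right, the median score of called members (circles, bars from the lower to the upper quartile) and of the 8657 other treated-list sites (diamonds), by group and replicate. The circles are highest in the 2 STM2457 libraries (29.1 and 30.1) and the diamonds lowest there (40.9 and 43.1).

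Being on the treated list alone did not mean being called in treated cells alone. Of the 1153 members, 398 were called in all 6 untreated libraries and 41 in none. A score of at least 10, the minimum of every listed site, was reached in all 6 untreated libraries by 226 members and in none by 193. In 742 members (64.4%) both treated scores exceeded all 6 untreated scores, with an uncalled base taken as 0, against a background of 12.7% of 188742 bases with a call in 2 or more libraries of the same group. The rule used this contrast, so nothing is read from the difference. Among the 398 members called everywhere, 356 had a higher mean score in U87-R STM2457 than in U87-R, and the median ratio of these means over the 398 was 1.81.

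Set against the properties shared by listed sites, members more often lacked an untreated peak than an untreated score. Every listed site had a score of at least 10 in at least 2 libraries of its group, and 98.6% (treated) and 99.9% (both untreated lists) of listed sites lay inside one of the authors' reproducible peaks of the same group. Inside the annotated start windows, where the base letter could be read, all 3429 treated, 2171 U87-R and 1683 U87 listed sites were adenosines. Of the members, 576 members (50.0%) reached a score of at least 10 in at least 2 libraries of an untreated group, and 540 of these lay in no untreated peak. In all, 839 members (72.8%) lay in no peak of either untreated group. Members lay inside a treated peak in 98.9%, a U87-R peak in 25.2% and a U87 peak in 20% of cases. The other treated-list sites lay inside a U87-R peak in 99.1% and a U87 peak in 96.6% of cases. The 398 members called in all untreated libraries were in an untreated peak in 14.3% of cases, against 26.8% of the 41 called in none.

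**Figure D2:**
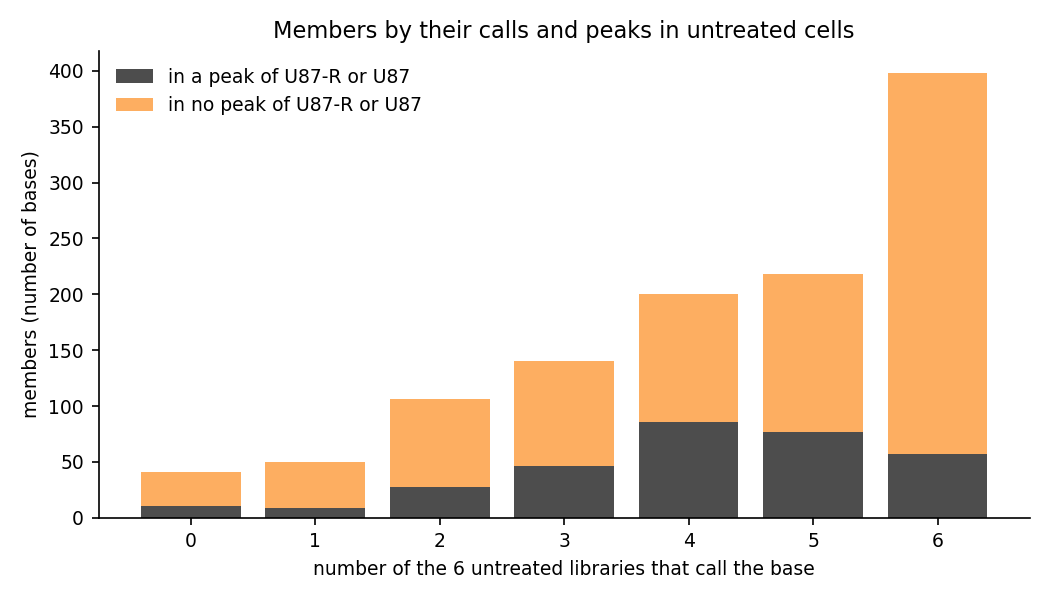
Members (number of bases) by how many of the 6 untreated libraries called them, with each bar split by whether the base lay in a reproducible peak of U87-R or U87. The tallest bar is that of all 6 libraries, with 398 members, of which 57 lay in an untreated peak.

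A larger share of the members than of the other sites of the same list lay near transcript starts; the shares are given as a description, with no test. RefSeq starts could be used for 972 members, since the other 181 lay in a gene, or on a reference sequence, with no start in the table. Of the 972, 306 (31.5%) lay 0 to 50 nt downstream of a start, 115 (11.8%) lay 1 to 50 nt upstream, 151 lay 51 to 250 nt downstream, 29 lay 51 to 250 nt upstream and 371 (38.2%) lay farther away. The 421 members within 50 nt on either side make 43.3%, against 7.59% of 7138 other treated-list sites under the same distance rule, 1.5% of 4870 sites listed in U87-R alone and 0.867% of 4153 sites listed in U87 alone. A share of 11.9% (116 members) was at the first base itself, against 2.69% of the other treated-list sites, 0.0411% of the sites listed in U87-R alone and 0.217% of those listed in U87 alone. The next most frequent offsets were 2 nt downstream (17 members) and 3 nt downstream (16 members).

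**Figure D3:**
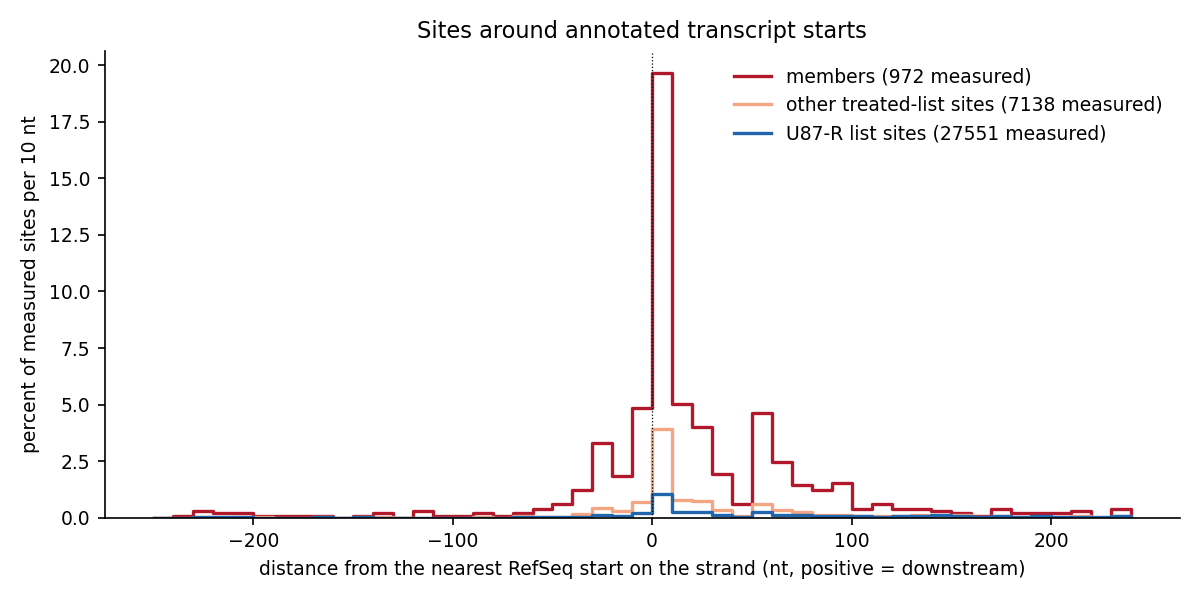
Percent of measured sites per 10 nt (vertical) against the distance from the nearest RefSeq start on the same strand in nt (horizontal, positive downstream), for members, other treated-list sites and U87-R list sites, all without bases within 50 nt of a gene's 5′ end. The members peak at the start, where 116 of 972 lay at the first base, and have a shoulder just beyond 50 nt, where the distance rule stops removing sites.

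The starts with a member just downstream were inner starts of the same gene in nearly all cases, since the rule had removed bases at the outer 5′ ends. Of the 306 members 0 to 50 nt downstream of a start, 303 lay in 1 gene and at a start of that same gene, at a median of 1150 nt from the gene's outermost 5′ end. Of the 115 upstream members, 70 lay in no gene span and 37 in the gene whose start followed. Genes with at least 2 annotated starts made 41.4% of the 781 genes holding a member, against 25.8% of the 5397 genes with any treated-list site. The distance rule itself favours genes with an inner start among those holding a member. The 5397 genes also include genes whose only treated-list sites lay within 50 nt of the 5′ end, so nothing is read from the difference. Beside the threshold of the rule, 49 members lay 51 to 60 nt from a gene's 5′ end, and 59 sites lay 41 to 50 nt and 771 sites 0 to 10 nt from one and were left out.

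The base before the called adenosine was C in most members near a start. Among 419 members 50 nt upstream to 44 nt downstream of a start, 61.6% had C before the A (the letters CA), against 30.9% of all 662742 adenosines in the same windows around all starts. The letters AC were held by 12.6% of these members, against 21.2% of all such adenosines, and GGAC by 0.477%, against 2.06%. The full DRACH consensus (A, G or T, then A or G, then the called A, then C, then A, C or T) was held by 0.716% of the members, against 7.28% of all such adenosines and 3.75% of 613 U87-R list sites in the windows. It was 1.12% in 536 other treated-list sites in the windows and 0.622% in the 2412 treated-list sites near a gene's 5′ end. The called base is A in every listed site there, so its letter is no finding. Motifs were read on the transcribed strand at the called base only. CA can overlap with AC, and GGAC is nested in AC. The U87-R list sites there had C before the A in 63.0% of cases and those 2412 sites in 69.0%, so this feature was shared with the listed start sites that are not members. At the first base, 88 of 116 members (75.9%) followed a C, against 66.6% of the 15605 annotated starts that begin with A.

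Within genes, the members lay toward the 5′ side. Of the members, 936 (81.2%) fell in 1 gene, 900 of them in protein-coding genes and 36 in genes of long noncoding RNAs. A further 132 were in no gene, 49 in a span without a known strand, 24 in a gene of the other strand only and 12 in several genes. The distance rule could not be applied to those 49. Of them, 27 lay within 50 nt of the span end that would be the 5′ end if read on the strand of the base. The median distance to the gene's 5′ end was 2003.5 nt, against 20337 nt for the other treated-list sites, and to the 3′ end it was 19738 nt, against 3910 nt. A distance of at most 500 nt to the gene's 3′ end was found in 1.5% of members and 7.15% of the other treated-list sites. Exons and stop codons were not annotated in the tables used.

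The 839 members in no untreated peak and the 314 in one are set side by side here, with no test. A start lay within 50 nt of 50.8% of those in no untreated peak (365 of 718 measured) and of 22% of those in one (56 of 254). The median combined score, the geometric mean of the 2 treated scores, was 34.2 for those in no untreated peak and 18.6 for those in one. By position the median combined score was 33.7 for members 0 to 50 nt downstream of a start, 29.3 for those 1 to 50 nt upstream and 22.2 for those farther than 250 nt from any start. With uncalled bases as 0, the median score 0 to 50 nt downstream of a start was 35.2 in U87-R STM2457, 16.0 in U87-R and 9.37 in U87.

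Bases that are not members were also more often near starts in the treated libraries. Among all other called bases beyond 50 nt of a gene's 5′ end, 12.0% and 11.2% lay within 50 nt of a RefSeq start in the STM2457 libraries, against 4.42% to 5.41% in the U87-R libraries and 4.08% to 4.75% in the U87 libraries. As counts these were 9032 and 8879 bases in the STM2457 libraries, 6215 to 6624 in the U87-R libraries and 4840 to 6331 in the U87 libraries. The treated libraries called fewer bases in all, and the part of this in the shares was not tested.

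The strongest members were in genes of unlike function and nearly all were also called in untreated cells. The base with the highest combined score was at chr22:37019447 on the minus strand in TST, a mitochondrial sulfurtransferase, 736 nt from the gene's 5′ end. It scored 154 and 135 in U87-R STM2457, 101, 46.0 and 73.5 in U87-R, and 29.7, 46.3 and 41.8 in U87. Both treated scores were above all 6 untreated scores, and it lay in no untreated peak.

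IL36RN, which encodes an antagonist of the interleukin-36 receptor, held the next member that could be given to a gene with a known strand, at an annotated start 560 nt inside the gene. That base (chr2:113059198) scored 124 and 121 in U87-R STM2457, 68.4, 62.1 and 80 in U87-R, and 74.4, 56.3 and 71.1 in U87. NT5DC2, with a 5′-nucleotidase domain, held a base at chr3:52533857 that scored 115 and 122 in U87-R STM2457, 90.5, 26.4 and 83.7 in U87-R, and 28.1, 27.0 and 28.2 in U87. In NT5DC2 the U87-R libraries disagreed, with replicate 2 down at the level of U87. PIP5K1B, a lipid kinase that makes phosphatidylinositol bisphosphate, was the one member among these with a treated score no higher than an untreated one: 106 and 133 in U87-R STM2457, 99.2, 76.5 and 106 in U87-R, and 44.5, 81.5 and 84.6 in U87.

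LARP1, an RNA-binding protein that controls translation of ribosomal protein messages, held a base at chr5:154755381 with scores of 109 and 109 in U87-R STM2457, 68.8, 32.8 and 58.3 in U87-R, and 59.8, 32.6 and 29.4 in U87. TUBA4A, an alpha-tubulin, held a base at chr2:219253916 with 109 and 109 in U87-R STM2457, 40.2, 45.8 and 51 in U87-R, and 30.1, 38.6 and 32.1 in U87. SH2B3, an adaptor that dampens cytokine receptor signalling, held a base at chr12:111405923 with 109 and 108 in U87-R STM2457, 81.3, 83.6 and 95.3 in U87-R, and 89.5, 81.6 and 90.6 in U87. In all 3 the treated libraries stood apart from the untreated ones, by the least in SH2B3, where U87-R and U87 overlapped.

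KCTD4 held a base at chr13:45194674 with scores of 111 and 120 in U87-R STM2457, 66.1, 54.0 and 52.2 in U87-R, and 58.8, 31.5 and 61.2 in U87. RTN4, a reticulon that shapes the endoplasmic reticulum, held one at chr2:55050524, 73 nt upstream of an inner start, with 110 and 112 in U87-R STM2457, 76.5, 85.9 and 80.9 in U87-R, and 71.2, 71.5 and 66.6 in U87. Of these genes' bases, none lay in an untreated peak.

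**Figure D4:**
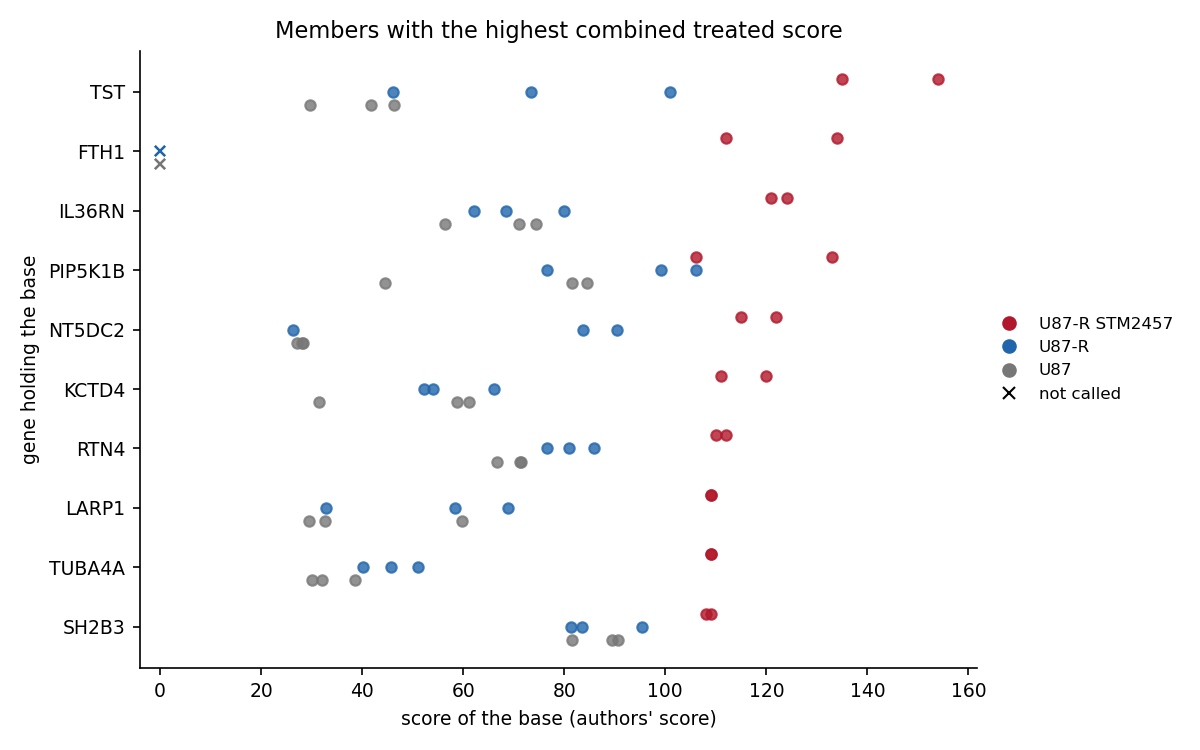
Scores (horizontal, the authors' score) of the 10 members with the highest combined score, at most 1 per gene, in each of the 8 libraries (circles, coloured by group; crosses mark libraries that did not call the base). Only in FTH1 were all 6 untreated libraries without a call, and only in PIP5K1B was a treated score (106) no higher than an untreated one.

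FTH1, the heavy chain of the iron store ferritin, stood apart from this pattern and was singled out after its values were seen. It held 4 members at chr11:61967534, chr11:61967538, chr11:61967540 and chr11:61967629 on the minus strand. They scored 96.4 and 109, 109 and 110, 111 and 114, and 112 and 134 in the 2 STM2457 libraries, and none was called in any of the 6 untreated libraries. They make 4 of the 41 members called in no untreated library, whose median combined score was 18.6. The base at chr11:61967629 lay in a peak of both untreated groups, and the others lay in no untreated peak. The strand of FTH1 could not be set from the tables, and the last of the 4 lies 5 nt from the span end that would be its 5′ end if the gene is read on the minus strand, so the distance rule would then have removed it. FTH1 has many processed copies in the genome, and no source used here says how reads were shared among them, so these values are uncertain.

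At the low end, the 5 members with the lowest combined scores were in CAPZB, CAMK4, TASOR2, RNF167 and AKTIP, at 10.3 to 10.5. CAPZB, an actin-capping subunit, had 10.6 and 10.0 in U87-R STM2457 and was called in no untreated library. CAMK4, a calcium/calmodulin-dependent kinase, had 10.5 and 10.4 in U87-R STM2457, 7.3, 24.2 and 9.53 in U87-R, and 7.5, 9.58 and 11.7 in U87. Its base therefore had scores above and below the treated ones in both untreated groups. The lowest single treated score of a member was 10.0059, and the nearest base below in a treated peak had 9.99951. In 142 members the lower of the treated scores was under 12.

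Not every member was higher under STM2457. In 6 members both treated scores were below all 6 untreated ones, against a background of 18.6% of the 188742 bases, and again nothing is read from this since the rule used the contrast. Among them were bases in CEBPB and TSC22D1, both transcription regulators, RNF145, a ubiquitin ligase, CHPF2, a chondroitin polymerizing factor, and SCAF1. CEBPB had 46.0 and 46.7 in U87-R STM2457, 69.1, 75.7 and 70.9 in U87-R, and 79.4, 86.6 and 81.0 in U87. RNF145 had 77.3 and 83.6 in U87-R STM2457, 93.3, 98.7 and 104 in U87-R, and 92.4, 96.0 and 94.1 in U87. All 6 were called in every untreated library with scores over the minimum, and none lay in an untreated peak.

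The member lying upstream of NOP10, which encodes a subunit of H/ACA small nucleolar ribonucleoproteins, scored 105 and 110 in U87-R STM2457, 51.7, 48.5 and 57.1 in U87-R, and 30.6, 51 and 43.0 in U87. The one upstream of IFI30, a lysosomal thiol reductase, scored 108 and 95.3 in U87-R STM2457, 39.0, 57.6 and 47.6 in U87-R, and 41.5, 49.8 and 32.7 in U87. In both the treated libraries lay clear of the untreated ones.

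Members were spread thinly over genes. Of the 781 genes, 650 held 1 member, 110 held 2 and 21 held 3 or more, and they make 14.5% of the 5397 genes with a treated-list site. Those 5397 include genes whose only treated-list sites lay within 50 nt of the 5′ end, where the rule allows no member. Of the 781, 613 (78.5%) also held a U87-R list site and 151 (19.3%) held no site of either untreated list. Neighbouring members formed 1028 clusters at most 50 nt apart, of which 109 held 2 or more. Of all members, 223 (19.3%) lay within 50 nt of an untreated-list site and 100 (8.67%) within 10 nt of one. The median distance to the nearest untreated-list site was 4878 nt.

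PLEKHO1, a pleckstrin homology domain protein, held the most, with 5. The first 4 lay 451 to 509 nt from its 5′ end, the largest cluster, and the one of highest combined score there (chr1:150150097) had 52.0 and 39.8 in U87-R STM2457, 7.36 in U87-R replicate 3 alone and 15.7 in U87 replicate 3 alone. The fifth, at chr1:150159295, had 35.6 and 34.7 in U87-R STM2457, no call in an untreated library, and lay in a peak of both untreated groups. AHDC1, an AT-hook DNA-binding protein, held 4, of which 1 lay 83 nt from its 5′ end and 3 lay 52728 to 56395 nt from it.

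SCAMP3, a carrier membrane protein of the secretory pathway, held 3 members 85 to 96 nt from its 5′ end and no site of either untreated list. Its strongest member, at chr1:155262266, had 80.7 and 63.3 in U87-R STM2457, 46.7, 38.8 and 45.5 in U87-R, and 31.8, 37.3 and 45.1 in U87. CIB1, a calcium and integrin binding protein, held 3 members 1 to 5 nt from an inner start and likewise no untreated-list site. Its strongest, at chr15:90233938, had 60.7 and 83.6 in U87-R STM2457, 33.1, 28.7 and 36.1 in U87-R, and 18.1, 34.0 and 20.9 in U87. Both genes were thus scored in every untreated library at bases that no untreated list holds.

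MIR100HG, the host transcript of a microRNA cluster, held a member at chr11:122180542 with 73.4 and 67.4 in U87-R STM2457, 26.1 and 7.96 in U87-R replicates 1 and 3, and 1.58 and 2.2 in U87 replicates 2 and 3. ADGRG1, an adhesion G protein-coupled receptor, held one at chr16:57628635 with 66.8 and 70.4 in U87-R STM2457, 24.1, 25.6 and 25.7 in U87-R, and 28.1, 4.81 and 22 in U87. DNPEP, an aspartyl aminopeptidase, held one at chr2:219387796 with 54.5 and 73.6 in U87-R STM2457, 23.6 and 25.7 in U87-R replicates 1 and 3, and 3.4 in U87 replicate 1. In these 3 the treated scores stood apart from the untreated ones. CALM3 (calmodulin), EMC3 (a subunit of the endoplasmic reticulum membrane complex) and SAE1 (a subunit of the SUMO-activating enzyme) held 3 members each.

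In each gene list of related pathways, 0 to 4 genes held a member. Of genes with any treated-list site, a member was held by 2 of 13 for the m6A writers, erasers and readers (WTAP and YTHDF3), 1 of 6 for S-adenosylmethionine supply (NNMT) and 3 of 16 for exon junction and splicing factors (ACIN1, SF3B1 and SRSF7). The counts were 2 of 13 for the stress response (ATF3 and CEBPB), 2 of 18 for immediate early genes (MYC and JUNB), 2 of 7 for interferon and RNA sensing (IRF3 and ADAR) and 1 of 18 for mesenchymal and matrix genes (COL6A3). They were 3 of 18 for receptor kinase signalling (IGF1R, AXL and BRAF), 4 of 8 for long noncoding RNAs (FTX, NORAD, NEAT1 and TUG1) and 0 for p53 targets (of 8) and DNA repair (of 10). Over all 5397 genes with a treated-list site the share was 14.5%. The list shares lay on both sides of it, and nothing is called particular to a list. METTL3, MGMT, MAT2A and MALAT1 held no member.

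WTAP, a subunit of the writer complex, had 21.7 and 20.6 in U87-R STM2457, 6.72, 7.64 and 7.15 in U87-R, and 4.06, 9.68 and 14.4 in U87. YTHDF3, a cytoplasmic reader of m6A, had 45.5 and 22.6 in U87-R STM2457, 78.3, 64.9 and 32.1 in U87-R, and 33.0, 65.7 and 48.7 in U87. The treated scores were above all untreated ones in WTAP and overlapped them in YTHDF3. NNMT, which uses S-adenosylmethionine to methylate nicotinamide, had 71.0 and 98.8 in U87-R STM2457, 37.0, 32.4 and 16.1 in U87-R, and 14.3 and 32.6 in U87 replicates 1 and 2. SF3B1, a core splicing factor, had 77.8 and 85.4 in U87-R STM2457, 33.5, 25.1 and 58.3 in U87-R, and 36.4, 27.9 and 44.3 in U87. NORAD, a noncoding RNA that binds PUMILIO proteins, had 67.0 and 69.6 in U87-R STM2457, 51.3, 52.8 and 51.8 in U87-R, and 44.3, 67.0 and 58.7 in U87. The treated scores stood clear of all untreated ones in NNMT and SF3B1, where U87-R and U87 overlapped, and in NORAD 1 U87 score equalled the lower treated one to 3 digits.

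The resistant line against its parent was the one comparison that the rule did not use as its contrast, although it used both untreated lists. The choice was still not neutral here. Members had to be listed in treated U87-R cells, so a gene uncalled in U87 could hold one, and a gene uncalled in U87-R less readily. The choice thus favours higher values in U87-R than in U87, at single members and in sums per gene. Nothing is read from that direction. No single member passed limma at an adjusted p of 0.05 in U87-R against U87, against a background of 0.00053% of 188742 bases called higher and 0% lower. The lowest adjusted p of a member in limma was 0.0988, and 126 members (10.9%) had an unadjusted p under 0.05, against 11.0% of all bases. The median log2 change was 0.32 for the members and 0.054 for all bases. All 1153 members entered the fit, since a call in both STM2457 libraries was enough. Only 1005 entered when 1 STM2457 library was left out, so the rest had entered through the STM2457 calls alone. Those members hold little data for this contrast, and the shares are a description.

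At the level of whole genes, 13 of the 781 genes holding a member were higher in U87-R than in U87 and 1 was lower, by limma on log2(summed score + 1) over all called bases. That is 1.66% and 0.128%, against a background of 0.894% called higher and 0.371% called lower among 10519 genes. With the replicate number as a block the counts were 5 higher and 0 lower of the 781, or 0.64% and 0%, against 0.494% and 0.152% of all genes in the same fit. The median log2 change was 0.17 for the 781 genes and 0.12 for all genes. An unadjusted p under 0.05 was reached by 14.3% of the genes holding a member and 12.5% of all genes. These sums include the members, and the 2 treated scores of a member were enough for its gene to enter the fit. All 781 genes entered, and 776 did when either STM2457 library was left out. Summed without the members, 9 of 775 genes were higher and 1 was lower, or 1.16% and 0.129%, against 0.856% and 0.371% of 10513 genes. An unadjusted p under 0.05 was then reached by 12.4% of the genes holding a member and 12.4% of all genes.

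MMADHC, which handles vitamin B12 inside cells, was among the genes of lowest p. Its summed score was 104.1 and 190.0 in U87-R STM2457 and 62.1, 129.5 and 99.46 in U87-R, and it was listed at 0 in all 3 U87 libraries (limma adjusted p = 0.00187). ANAPC10, a subunit of the anaphase-promoting complex, had 66.86 and 46.3 in U87-R STM2457 and 21.85, 18.56 and 14.41 in U87-R, and was also listed at 0 in all 3 U87 libraries (limma adjusted p = 0.0104). For both no fold is given. Summed without the member base, MMADHC still passed (limma adjusted p = 0.0024) and ANAPC10 did not (limma adjusted p = 0.0912). Every U87-R library was above every U87 library in these genes.

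CDH11, a mesenchymal cadherin, averaged 215.1 ± 55.31 in U87-R and 7.341 ± 6.397 in U87 (SD, n = 3 each), a log2 change of 5.08 (SE 0.67, limma adjusted p = 0.00842; 3.74 with a pseudocount of 10), with 553.5 and 517.4 in the treated libraries. The zinc finger gene ZNF300 averaged 150.7 ± 41.65 in U87-R and 1.173 ± 2.032 in U87 (SD, n = 3 each), a log2 change of 6.48 (SE 0.697, limma adjusted p = 0.00392). ZNF300 was listed at 0 in 2 of the 3 U87 libraries, so the pseudocount sets the size of its change, which was 3.83 with a pseudocount of 10. ZNF480, of the same family, averaged 229.8 ± 82.9 in U87-R and 22.79 ± 12.37 in U87 (SD, n = 3 each), a log2 change of 3.34 (SE 0.404, limma adjusted p = 0.00546). In all 3 genes no U87 library reached the lowest U87-R library. The only gene that was lower, ZNF503, averaged 2026 ± 65.69 in U87-R and 2930 ± 86.95 in U87 (SD, n = 3 each), a log2 change of -0.53 (SE 0.0992, limma adjusted p = 0.0448). Its call was lost with the block (adjusted p = 0.161), after centring (0.0764), with no filter on low sums (0.0605) and without any 1 of the 8 libraries, and that of ANAPC10 was lost with the block (adjusted p = 0.0545), with a pseudocount of 10 (0.0612), with a stricter filter (0.0623) and without either STM2457 library (adjusted p = 0.111 and 0.101). That of CDH11 was lost without U87-R replicate 1 (adjusted p = 0.0504). The other genes that passed, all higher, were PCDH17, TOGARAM1, MDK, RTN4R, ZNF254, TRMT5, KHNYN, SLITRK2 and the 5 above. With the block only MMADHC, ZNF300, ZNF480, CDH11 and MDK passed, and the calls of the other 8 higher genes were lost.

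**Figure D5:**
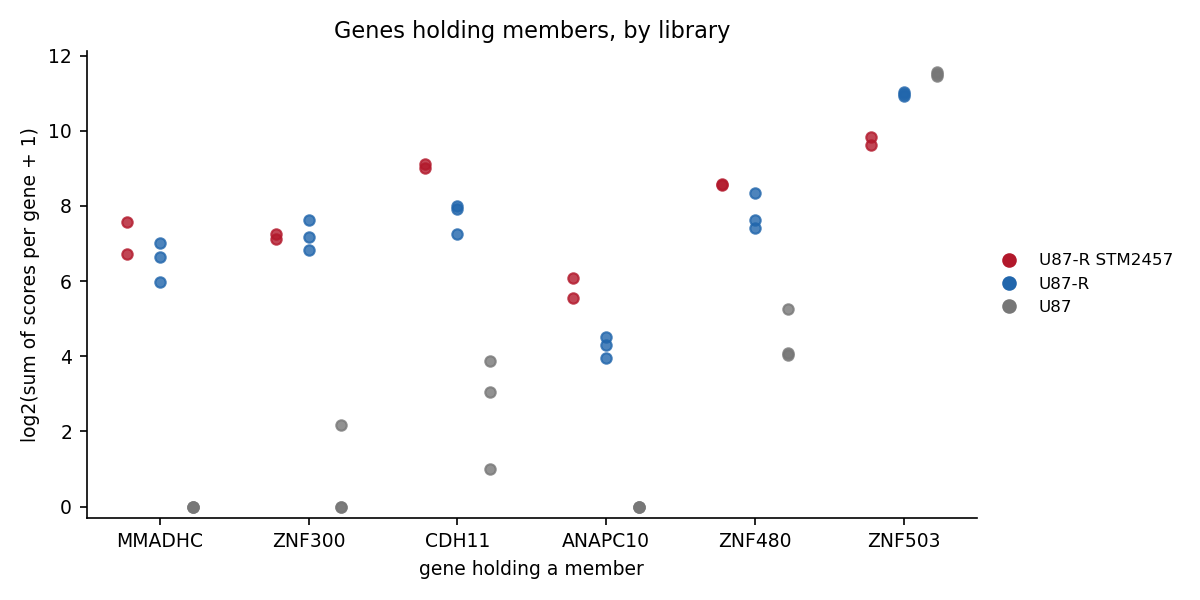
Summed score per gene on a log2(sum + 1) scale (vertical) in each library (points, coloured by group) for 6 genes that hold members and passed in U87-R against U87. In MMADHC and ANAPC10 all 3 U87 libraries are at 0, and ZNF503 is the one gene where U87-R lies below U87.

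The member bases of MMADHC, ANAPC10, CDH11 and ZNF300 were called in no U87 library. The base in MMADHC, at chr2:149587720, scored 38.2 and 55.0 in U87-R STM2457 and 13.4, 35.8 and 22.2 in U87-R. That of ANAPC10 scored 45.5 and 28.5 in U87-R STM2457 and 14.0, 9.28 and 11.2 in U87-R, and that of CDH11 scored 13.9 and 22 in U87-R STM2457 and 9.96, 21.1 and 6.12 in U87-R. The member of ZNF503, by contrast, scored 32.0 and 37.1 in U87-R STM2457, 14.7, 4.67 and 8.4 in U87-R, and 16.5 in U87 replicate 1 alone.

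The other bases of the genes holding members, summed without the members, were set against U87-R as a description, since the rule used this contrast. Of 775 such genes, 44 were higher in U87-R STM2457 and 292 were lower by limma, which is 5.68% and 37.7%, against a background of 6.23% and 38.6% of 10513 genes. With each library centred on its median the split was 142 higher and 169 lower (18.3% and 21.8%), against 14.9% and 25.5% of all genes. Centring moved the median log2 change of all genes to -0.16, against -0.70 without it, and that of the 775 genes to 0.07, against -0.48. Of the 10 genes with most members, ADGRG1, CALM3, MIR100HG and PLEKHO1 passed, all lower. These sums leave out bases chosen for standing on the treated list alone, so leaving them out takes more from the treated sums than from the untreated ones. With the members kept in, the change was -0.42 in CALM3 (limma adjusted p = 0.227) and -0.40 in MIR100HG (limma adjusted p = 0.0749), and neither passed. In MIR100HG the other bases summed to 288.3 and 281.7 in U87-R STM2457 and 626.9, 602.7 and 493.4 in U87-R, a log2 change of -1.0 (SE 0.16, limma adjusted p = 0.00125), and of -0.46 after centring (limma adjusted p = 0.0497). The calls of ADGRG1, CALM3 and PLEKHO1 were lost on centring (adjusted p = 0.226, 0.309 and 0.213 in limma), and that of CALM3 also without either STM2457 library (adjusted p = 0.0827 and 0.073).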

How the data were processed

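m6A-eCLIP was measured in 8 libraries of polyA RNA, and 8 input libraries were not analysed here. Reads were processed with UMI-tools, cutadapt and STAR on hg38, per the submitters' processing notes. No source used here gives versions or names the site caller. The deposited score of a base is the smallest of 4 scores listed for it, checked in every library, and has no stated unit. The authors' lists give each site a combined score, which equals the geometric mean over libraries, and the deposited fraction is the share of a group's libraries that hold the site or peak.

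Bases were matched by position and strand. Gene spans came with hg38 coordinates, strands from RefSeq starts (27305 genes) or, failing that, from at least 5 called bases with 80% on 1 strand (1791 genes). Of 8309 genes with both, 209 differed. Values of log2(score + 1), or of summed scores per gene, with uncalled bases as 0, were fitted over all 3 groups with limma 3.58.1 (mean-variance trend) in R 4.3.3, with Benjamini-Hochberg adjustment over all bases with a call in 2 or more libraries of the same group, or genes whose sum reached 10 in 2 or more libraries. Fits were tested on simulated data. Same-numbered U87-R and U87 libraries deviated together (correlations of 0.101, 0.316 and 0.108), each over the 0.1 set for pairing. However, U87-R 1 with U87 3 (0.144) and U87-R 3 with U87 1 (0.121) correlated more than the same-numbered pairs 1 and 3. Whether the numbers pair these libraries is therefore uncertain. STM2457 and U87-R did not deviate together (-0.0201 and -0.0226). The main fits held no block, and the replicate block was run as an alternative over all 3 groups.

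The alternatives were the distance rule, the score minimum, rebuilt lists, pseudocount, filter, centring, block and leaving out each library. Named bases are the 10 of highest combined score, 1 per gene, and the 5 lowest; named genes are the 10 with most members, up to 2 per list, and up to 5 of lowest p each way in U87-R against U87. Some items covered by these rules are not reported here. Members and lists were chosen with earlier results of these data known.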

Additional observations from a re-analysis of the deposited data

How the results depend on the processing

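The number of members moved with the rule: it was 2450 with no distance rule, 193 with no untreated score of at least 10, 41 with no untreated call, 314 in an untreated peak (chosen after seeing the data) and 6389 with lists rebuilt from scores alone, as a score of at least 10 in at least 2 libraries (6818 to 7436 without each untreated library). The share within 50 nt of a start, 43.3%, was 55.3% with a 20 nt rule, 72.8% with none, 33.5% with no untreated score of at least 10, 32.3% with no untreated call, 49.4% with a score minimum of 20 and 21.3% with rebuilt lists (21.2% to 22.3% without each untreated library). With choices made after seeing the data it was 49.9% with every strand from called bases, 50.8% outside untreated peaks and 22% inside them.

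In U87-R against U87, leaving out 1 U87-R or U87 library gave 0 to 29 single members called, and the replicate block gave 0. With U87-R replicate 2 left out (27 called), 2.25% of members were higher and 0.0867% lower, against 2.52% and 0.555% of all bases. With U87-R replicate 3 left out the shares were 0.694% and 0%, against 0.933% and 0.109%. With U87 replicate 2 left out (29 called) they were 2.34% and 0.173%, against 0.577% and 1.63%. Leaving out U87 replicate 1 gave 1.3% and 0.0867%, against 0.31% and 1.72%. Leaving out U87 replicate 3 gave 1.13% and 0%, against 0.185% and 0.68%. Why the shares changed was not tested. The main fit called 14 genes (1.79%, against 1.26% of all genes). Genes called numbered 5 with the replicate block (0.64%, against 0.646%) and 8 with no filter (1.02%, against 0.917%). Without 1 U87-R or U87 library they numbered 4 (0.512%, against 0.665%) to 18 (2.3%, against 1.83%). CDH11 was lost without U87-R replicate 1 (adjusted p = 0.0504); MMADHC, ZNF300 and ZNF480 passed in every setting run. For the other bases of the genes in U87-R STM2457 against U87-R, calls numbered 222 to 377 without 1 library, against 336. Higher calls were 69 with a pseudocount of 10, 142 after centring and 6 to 48 without 1 library; lower calls were 169 after centring and 216 to 335 without 1 library. The replicate block gave 33 higher and 253 lower (4.26% and 32.6%, against 5.13% and 33.5%), and it changed no other call among the genes with most members.

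Signs turned in genes that did not pass: AHDC1 after centring (0.294); SCAMP3 with the block (-0.076) and among settings that leave out 1 library (-0.353 to 0.66, below 0 without STM2457 replicate 2 and U87-R replicate 3); DNPEP with the block (0.127), after centring (0.354) and on leaving out U87-R replicate 1 (range over all libraries left out -0.678 to 0.114); EMC3 with a pseudocount of 10 (-0.004), and on leaving out STM2457 replicate 2 or U87-R replicate 2 (range -0.271 to 0.283); and SAE1 on leaving out STM2457 replicate 2 (range -2.468 to 0.154). The cause of these changes was not tested. The score has no read count behind it, so depth limits cannot be stated.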

Other observations

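The 41 members called in no untreated library were a weak group apart from FTH1. EPOR, the erythropoietin receptor, held the strongest of them outside FTH1, at chr19:11381222, with 57.2 and 41.4 in U87-R STM2457. BCL3, a regulator of NF-kappa-B, held one at the first base of an inner start (chr19:44748708) with 25.6 and 37.2 in U87-R STM2457. Of the 31 such members that could be placed against a start, 10 (32.3%) lay within 50 nt of one, against 49.4% of those called in all 6 untreated libraries. These genes were picked after their values were seen, and no test was made.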
